A study of Arabidopsis thaliana with 9 samples.

Results

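A set of 4 genes of branched-chain amino acid breakdown was taken up by name, MCCB, ALDH6B2 and the loci AT1G21400 and AT5G09300. They were chosen from the measured fall of such genes over 12 h in culture, so the differences from 0 h below describe them and carry no test. A gene was read only where a probe set, a group of probes for the same transcript, was mapped to that gene alone. That was the case for 3 of the 4 (MCCB, ALDH6B2 and AT1G21400), among 16550 genes measured in this way. The only probe set of AT5G09300 was also mapped to AT5G09290, its neighbour in RefSeq's TAIR10.1 gene table, and was not read for either gene.

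The cells came from Alex, a suspension culture of Arabidopsis thaliana in a background labelled Col-O, and grew in the dark. All groups carried LHW and T5L1-GFP, a pair of interacting basic helix-loop-helix transcription factors of vascular development, that estrogen switches on. There were 9 samples, 3 replicates each taken at the start (0 h), after 12 h in 5 µM estrogen, and after 12 h with no estrogen added. Each was hybridised to 1 array. No group lacked the inducible genes, so an effect of estrogen itself cannot be told apart from one of LHW and T5L1. The labels do not say that replicates were separate cultures, so the spread behind each p-value is that of these samples and may be technical.

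Leucine, isoleucine and valine are broken down in plant mitochondria. A transaminase first removes the amino group, and the branched-chain keto acid dehydrogenase complex then turns the keto acid into an acyl-CoA, in the step that commits it to breakdown. Further enzymes oxidise the acyl-CoA, and an electron transfer flavoprotein with its oxidoreductase hands electrons to ubiquinone. The route is known in Arabidopsis as an alternative source of respiratory electrons in darkness and sugar shortage, when its transcripts accumulate. Of the genes named, AT1G21400 and AT5G09300 encode the E1 alpha subunit of the keto acid dehydrogenase. MCCB encodes the beta subunit of methylcrotonyl-CoA carboxylase, a biotin enzyme of leucine breakdown, and ALDH6B2 encodes methylmalonate semialdehyde dehydrogenase of valine breakdown.

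LHW was measured to check the induction, and its log2 signal was 10.72, 11.05 and 11.24 with estrogen at 12 h, 8.72, 8.60 and 8.14 without it, and 8.60, 8.71 and 8.22 at 0 h. The arrays with estrogen thus stood above all others, as their labels say. No probe set was mapped to T5L1 alone. Array medians of the log2 signal ranged from 5.28 to 6.21. Rows for background, present on replicates 1 and 2, had a median of 4.20, with single rows from 1.08 to 8.20. A signal below that median is not shown to be clear of background, and one above it but under 8.20 still lies within the range of these rows. Replicate 3 stood apart in every group, and 37.6% of all probe sets had exactly equal values on at least 2 of its 3 arrays, against 1.06% in replicate 1 and 0.833% in replicate 2. Of 10 markers of leaf mesophyll, root hair and xylem cells, 3 were measured and none was a xylem marker. The root hair genes EXPA7 and EXPA18 lay between 2.94 and 4.23 on all arrays. RCA, which encodes Rubisco activase of green leaf cells, was at 7.64 to 8.31 at 0 h, 4.43 to 5.29 without estrogen and 4.71 to 5.32 with it. The summed log2 signal of these 3 markers was 14.36 to 15.81 at 0 h, 11.09 to 12.80 without estrogen and 11.85 to 12.83 with it. That fall came from RCA (-3.20 without and -2.95 with estrogen), while EXPA7 and EXPA18 differed from 0 h by -0.11 to 0.16. The part of these markers in the results below was not tested.

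All 3 measured genes were high at 0 h and lower at 12 h, with or without estrogen. AT1G21400, at the keto acid dehydrogenase step, had log2 signals of 10.21, 10.26 and 9.85 at 0 h. Without estrogen at 12 h it was at 3.22, 3.52 and 2.81, and with estrogen at 3.98, 3.16 and 3.13. All 6 arrays at 12 h lay below the median of the background rows, so the transcript was not shown to be present at that time and the size of its difference is uncertain. That difference from 0 h was -6.92 (SE 0.28) without estrogen and -6.68 (SE 0.28) with it, on the log2 scale. In bulk cultures, fewer cells with a transcript and less of it per cell cannot be told apart.

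**Figure D1:**
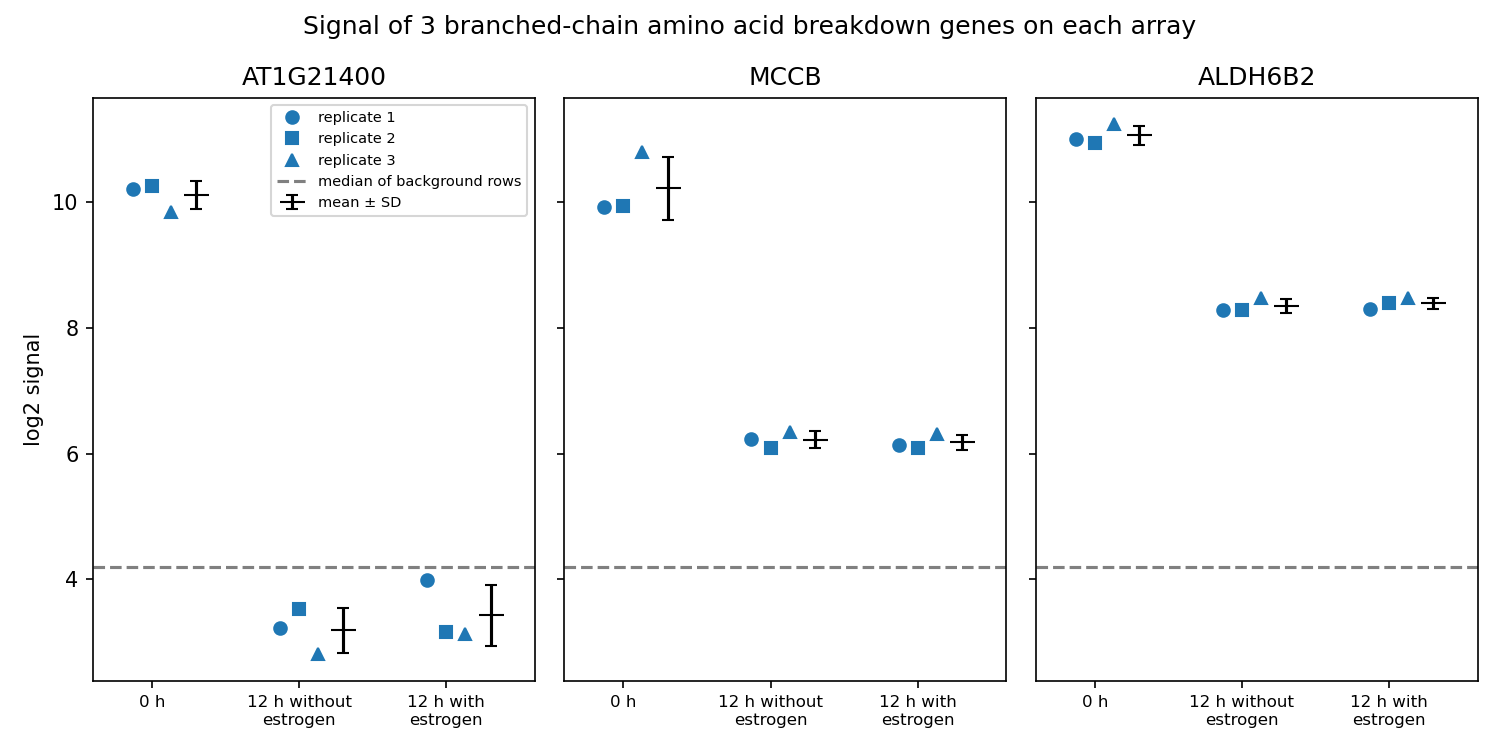
Log2 signal of AT1G21400, MCCB and ALDH6B2 on each of the 9 arrays by group, with the replicate number as the symbol, the group mean ± SD (n = 3) as black bars and the median of the background rows (4.20) as a dashed line. Each gene is high on the 3 arrays at 0 h and lower on all 6 arrays at 12 h, and AT1G21400 at 12 h lies below the dashed line.

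MCCB, of the leucine branch, was at 9.92, 9.93 and 10.80 at 0 h. It was at 6.23, 6.08 and 6.35 at 12 h without estrogen, and at 6.13, 6.08 and 6.32 with it. The values at 12 h lay above the median of the background rows but inside their range of 1.08 to 8.20, so the size of the difference is uncertain, and replicate 3 was the highest in each group. MCCB was thus 15.98-fold lower at 12 h without estrogen (-4.00, SE 0.24, on the log2 scale) and 16.5-fold lower with it (-4.04, SE 0.24). Replicate 3 had the largest of the 3 differences in both comparisons, at -4.45 and -4.48, against -3.69 to -3.85 for replicates 1 and 2.

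ALDH6B2, of the valine branch, was at 11.01, 10.95 and 11.24 at 0 h. It was at 8.28, 8.28 and 8.48 at 12 h without estrogen, and at 8.30, 8.39 and 8.48 with it. It had the smallest spread of the 3 genes, with an SD of 0.15 at 0 h, 0.11 at 12 h without estrogen and 0.09 with it (n = 3 each). Its difference was 6.59-fold without estrogen (-2.72, SE 0.16) and 6.39-fold with it (-2.68, SE 0.16), lower at 12 h in both.

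The 3 genes kept 1 order of differences in every replicate. Without estrogen, AT1G21400 differed from 0 h by -6.74 to -7.04 over the 3 replicate numbers, MCCB by -3.69 to -4.45 and ALDH6B2 by -2.67 to -2.76, and these ranges do not overlap. With estrogen they were -6.23 to -7.10, -3.79 to -4.48 and -2.55 to -2.76. The genes differed in how replicate 3 sat within its group, since it was the highest array for MCCB and ALDH6B2 in all 3 groups and the lowest for AT1G21400 in all 3.

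Among the 16722 probe sets with 1 gene, ordered from the largest decrease, AT1G21400 stood at rank 3, MCCB at rank 73 and ALDH6B2 at rank 259 without estrogen. With estrogen the ranks were 4, 68 and 266. Both comparisons use the same 0 h arrays, so the second set of ranks does not repeat the first independently. The median difference over these probe sets was -0.00029 without estrogen and -0.0039 with it, and 5% of them had a difference below -1.57 in each comparison. For the 3 genes the groups did not overlap, which was also true of 16.8% of these probe sets, lower at 12 h without estrogen, and of 16.6% with it.

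**Figure D2:**
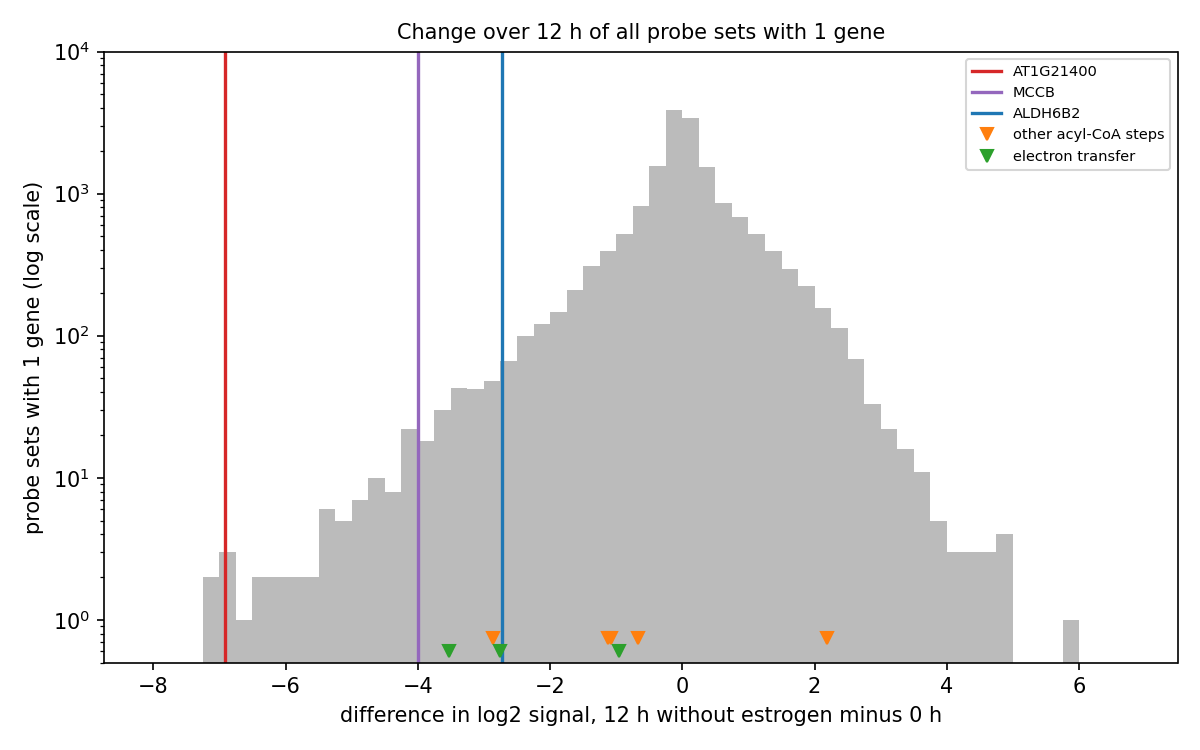
Histogram of the difference in log2 signal, 12 h without estrogen minus 0 h, over 16722 probe sets with 1 gene (counts on a log scale). Vertical lines mark AT1G21400 (-6.92), MCCB (-4.00) and ALDH6B2 (-2.72), and triangles mark the 5 other measured genes of the acyl-CoA steps and the 3 of electron transfer, of which 7 lie left of 0.

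Estrogen at 12 h was the comparison that did not choose the genes, although it shares the 12 h arrays with those that did. None of the 3 was called in it by limma at an adjusted p under 0.05 over 38310 probe sets, and 0 of the 3 had an unadjusted p under 0.05. Of all probe sets 0.0392% were called, each of them higher with estrogen, and of those with 1 gene 0.0239%. AT1G21400 differed by 0.24 (SE 0.28, 95% interval -0.39 to 0.87, adjusted p = 1), with 2 replicates higher and 1 lower. MCCB differed by -0.04 (SE 0.24, 95% interval -0.59 to 0.51, adjusted p = 1), with 1 replicate higher and 2 lower. ALDH6B2 differed by 0.04 (SE 0.16, 95% interval -0.31 to 0.39, adjusted p = 1), with 2 replicates higher.

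For each gene the arrays with and without estrogen overlapped. In replicate 3 the 2 ALDH6B2 values at 12 h were exactly equal, as were those of 42.7% of probe sets with 1 gene, so this pair adds a difference of 0. AT1G21400 was below the median of the background rows in both 12 h groups, so its difference and interval set no limit on an effect of estrogen on that transcript. For MCCB the interval ran from 0.59 down to 0.51 up on the log2 scale. Its values at 12 h lay inside the range of the background rows, so this interval sets no firm limit either. For ALDH6B2 the interval leaves room for a change by estrogen of 0.31 down or 0.39 up, with the equal pair of replicate 3 included.

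The rest of the route was read from lists of known genes, of which few had a probe set of their own. These lists and all those below were chosen with earlier results of these data known. Their counts and adjusted p-values against 0 h thus describe the genes and are not an independent test. As for MCCB, values under 8.20 lie inside the range of the background rows. For list genes with such values the size of the difference is uncertain. At the keto acid dehydrogenase itself, 0 of 5 other subunits were measured. Along the acyl-CoA steps and the electron transfer that follows them, 8 of 12 other genes were measured. Of these, 7 fell over 12 h without estrogen and 1 rose, with a median difference of -1.10. Among all probe sets with 1 gene 13.6% were called lower and 16.3% higher, and their median was -0.00029. With estrogen the counts were also 7 lower and 1 higher (background 13.6% and 16.4%), with a median of -1.18.

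In the valine branch AT4G20930, which encodes a 3-hydroxyisobutyrate dehydrogenase acting just before ALDH6B2, was at 7.82, 8.23 and 8.68 at 0 h and at 5.37, 5.24 and 5.55 at 12 h without estrogen. Its groups did not overlap, and it fell by 2.86 (SE 0.23, adjusted p = 2.2e-05). Its values at 12 h lay inside the range of the background rows (1.08 to 8.20), while those of ALDH6B2 lay above it. The size of its fall is thus uncertain. Of 2 genes for proteins like 3-hydroxyisobutyryl-CoA hydrolase, AT3G60510 fell by 1.08 (SE 0.16, adjusted p = 0.000705). The other, AT4G31810, was the gene that rose, from 7.65, 7.79 and 7.86 to 9.83, 9.83 and 10.21, by 2.19 (SE 0.18, adjusted p = 2.4e-05). These 2 genes thus moved in opposite directions, and whether either acts at this step was not tested.

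In the leucine branch AT2G26800, which encodes hydroxymethylglutaryl-CoA lyase of the last step, fell by 1.13 (SE 0.15, adjusted p = 0.000387). It was at 8.76, 8.83 and 9.12 at 0 h and at 7.75, 7.85 and 7.74 at 12 h without estrogen. AT4G16800, a hydratase-family gene taken here for the step between the carboxylase and the lyase, fell by 0.67 (SE 0.17, adjusted p = 0.0107). Both changes were smaller than the -4.00 of MCCB in the same branch. IVD, MCCA and the hydrolase gene CHY1 had no probe set of their own and were not analysed here.

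All 3 measured genes of electron transfer fell. ETFQO, whose product passes the electrons to ubiquinone, was at 11.44, 11.44 and 11.81 at 0 h and at 8.78, 8.82 and 8.81 at 12 h without estrogen. It fell by 2.76 (SE 0.16, adjusted p = 5.0e-06). D2HGDH, a hydroxyglutarate dehydrogenase that feeds the same flavoprotein, went from 10.06, 10.31 and 10.88 to 6.67, 6.88 and 7.11 and fell by 3.53 (SE 0.27, adjusted p = 1.8e-05). ETFALPHA, a subunit of the flavoprotein, fell by 0.96 (SE 0.23, adjusted p = 0.00778), the smallest change of the 3.

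**Figure D3:**
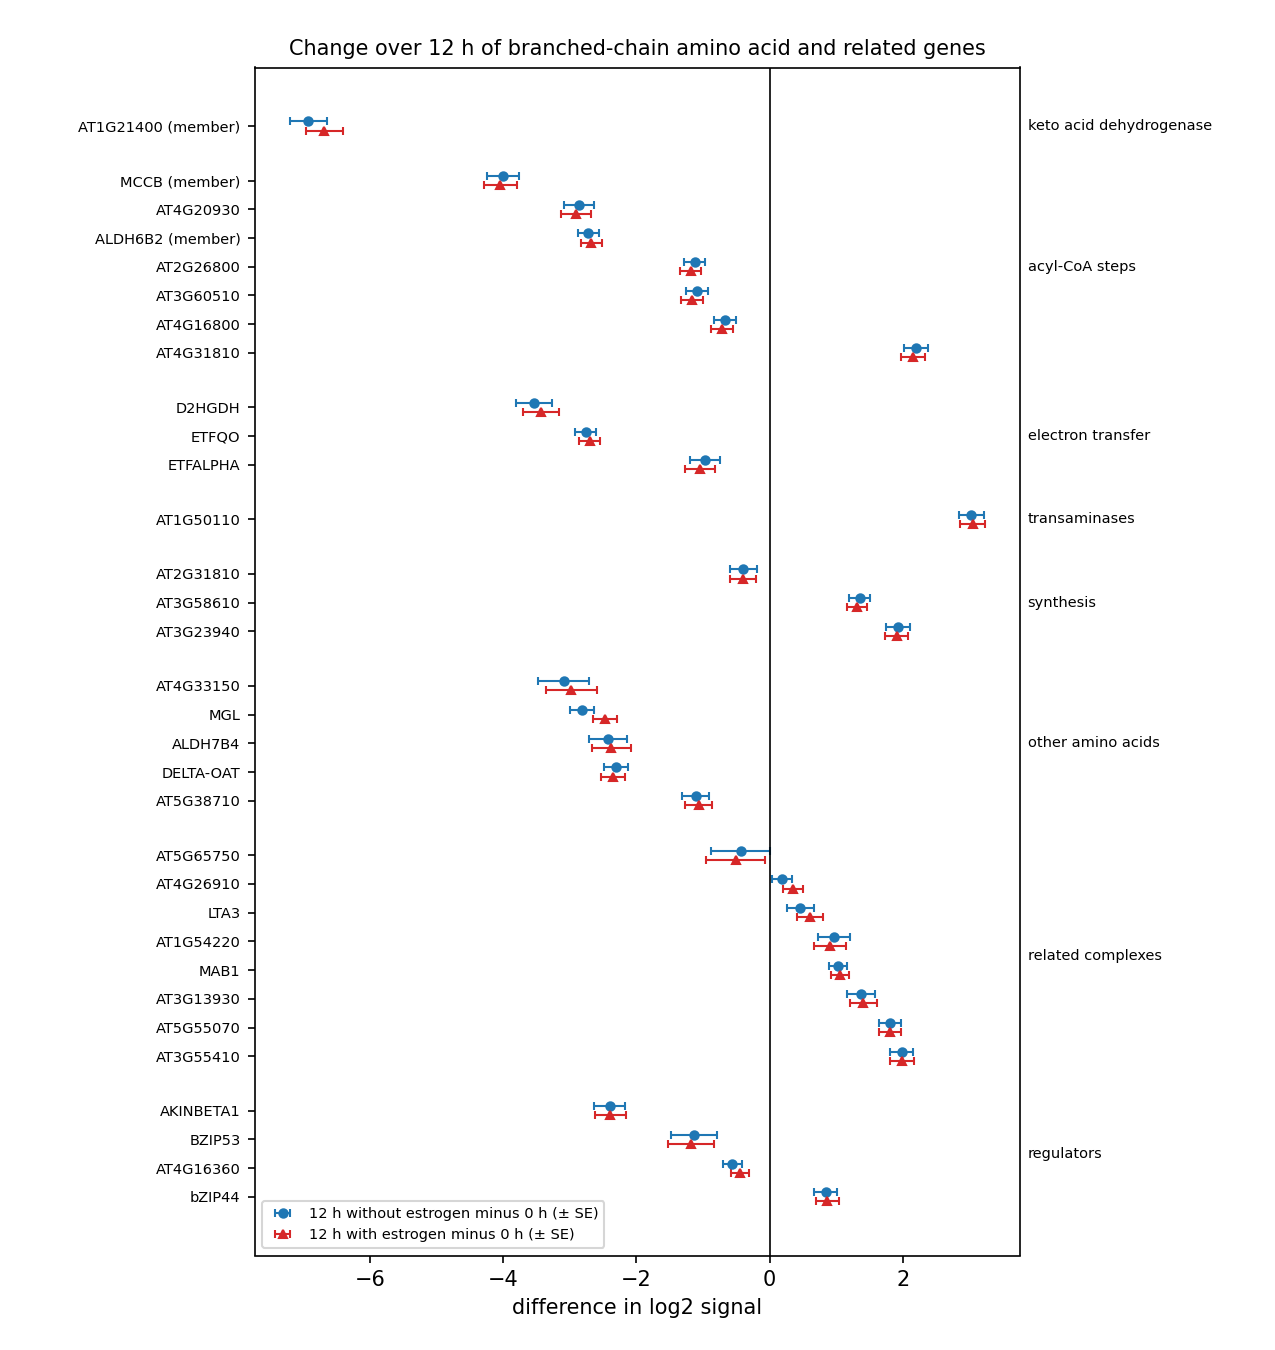
Difference in log2 signal from 0 h (± SE, 3 arrays per group) for the 3 genes chosen (marked member) and 29 other measured genes by list, without estrogen (circles) and with estrogen (triangles). The keto acid dehydrogenase, acyl-CoA step and electron transfer genes lie left of 0 except AT4G31810 (2.19 without estrogen), while AT1G50110 and the synthesis genes AT3G58610 and AT3G23940 lie right of it.

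Of the genes of transamination and synthesis, 3 of 4 measured rose and 0 fell without estrogen, beside 16.3% higher and 13.6% lower of all probe sets with 1 gene. AT1G50110, the 1 of 6 transaminase genes measured, encodes an enzyme that can act in breakdown or synthesis. It rose by 3.02 (SE 0.19, adjusted p = 7.3e-06), from 7.35, 7.47 and 6.85 to 10.27, 10.21 and 10.25 without estrogen. Of 15 synthesis genes 3 were measured. AT3G23940, which encodes dihydroxyacid dehydratase, rose by 1.92 (SE 0.17, adjusted p = 4.1e-05), and AT3G58610, which encodes ketol-acid reductoisomerase, rose by 1.35 (SE 0.15, adjusted p = 0.000131). AT2G31810, a regulatory subunit of acetolactate synthase, differed by -0.39 (SE 0.20, adjusted p = 0.164), and with the replicate number as a block it was called lower (adjusted p = 0.00934). The counts for synthesis were thus 2 higher and 0 lower of 3, and 2 higher and 1 lower with the block. AT2G31810 was also called lower after quantile normalization (-0.70) and centring (-0.86).

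The keto acid dehydrogenase belongs to a family of mitochondrial complexes with the pyruvate and 2-oxoglutarate dehydrogenases. Of 10 subunit genes of these related complexes 8 were measured, and 5 rose and 0 fell without estrogen, against 16.3% and 13.6% of all probe sets with 1 gene. AT3G55410, an E1 subunit of 2-oxoglutarate dehydrogenase, rose by 1.98 (SE 0.18, adjusted p = 3.8e-05), and AT5G55070, an E2 subunit of it, by 1.81 (SE 0.16, adjusted p = 4.2e-05). MAB1, the E1 beta subunit of pyruvate dehydrogenase, rose by 1.02 (SE 0.14, adjusted p = 0.000338), and its E2 gene AT3G13930 by 1.37 (SE 0.20, adjusted p = 0.000608). AT1G54220, another E2 gene, also rose (0.97, SE 0.24, adjusted p = 0.00965). The block called 2 further genes, LTA3 higher (0.46, adjusted p = 0.1007 without it and 0.00299 with it) and AT5G65750 lower (-0.43, adjusted p = 0.531 and 0.00663). With estrogen 6 rose, LTA3 among them (0.61, adjusted p = 0.0366), but its call ended when any of 6 single arrays was left out or each array was centred (adjusted p 0.0532 to 0.534). The limma call of AT1G54220 with estrogen also ended without 0 h replicate 1 (adjusted p = 0.0529).

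Of 16 breakdown genes of other amino acids 5 were measured, and all 5 fell without estrogen, with a median difference of -2.43. Of all probe sets with 1 gene 13.6% were called lower, with a median of -0.00029. MGL, methionine gamma-lyase, whose product can feed isoleucine synthesis, fell by 2.82 (SE 0.18, adjusted p = 7.5e-06). DELTA-OAT, ornithine aminotransferase, fell by 2.31 (SE 0.18, adjusted p = 2.0e-05). In lysine breakdown AT4G33150, the bifunctional LKR/SDH, fell by 3.09 (SE 0.38, adjusted p = 0.000221). ALDH7B4, an aldehyde dehydrogenase gene of the same pathway, fell by 2.43 (SE 0.29, adjusted p = 0.00018). AT5G38710, a proline dehydrogenase gene, fell by 1.11 (SE 0.20, adjusted p = 0.00195).

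SnRK1, a kinase active in energy shortage, and bZIP factors of the C and S1 groups are known to raise breakdown genes in starved Arabidopsis. Of 13 listed genes for SnRK1 subunits and these bZIP factors 4 were measured. Of these, 3 were lower and 1 higher at 12 h without estrogen, beside 13.6% and 16.3% of all probe sets with 1 gene. Whether each of them raises or restrains the route was not tested. AKINBETA1, a beta subunit of SnRK1, was at 10.19, 10.09 and 10.70 at 0 h and at 7.87, 7.72 and 8.21 at 12 h, and fell by 2.40 (SE 0.23, adjusted p = 5.8e-05). AT4G16360, another beta subunit, fell by 0.56 (SE 0.14, adjusted p = 0.0112) and BZIP53 fell by 1.13 (SE 0.34, adjusted p = 0.0257). The call of BZIP53 ended without 0 h replicate 3 (adjusted p = 0.0787) and without replicate 1 or 2 at 12 h without estrogen (0.0895 and 0.0865). The gene called higher was bZIP44 (0.84, SE 0.17, adjusted p = 0.00361), but not after quantile normalization or centring of each array on its median, where it differed by 0.37 and 0.38 (adjusted p = 0.0926 and 0.0776). None of 10 listed dark and sugar starvation markers and none of 8 listed biotin genes had a probe set of its own.

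With against without estrogen at 12 h, limma called 0 of the 29 other measured genes, and 0 had an unadjusted p under 0.05. For AT2G26800 and AT4G16800 the replicate 3 values at 12 h were exactly equal, so these pairs add a difference of 0. The differences of the 29 genes ran from -0.09 for AT3G60510 to 0.35 for MGL. The groups did not overlap for 3 of them, higher with estrogen for MGL and MAB1 and lower for AT3G60510, beside 2.09% of all probe sets with 1 gene in the higher and 1.27% in the lower direction. MGL was at 8.09, 8.11 and 7.76 with estrogen and at 7.72, 7.71 and 7.51 without it, so each replicate was higher with estrogen, but the difference was not called (SE 0.18, 95% interval -0.05 to 0.74, adjusted p = 1).

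**Figure D4:**
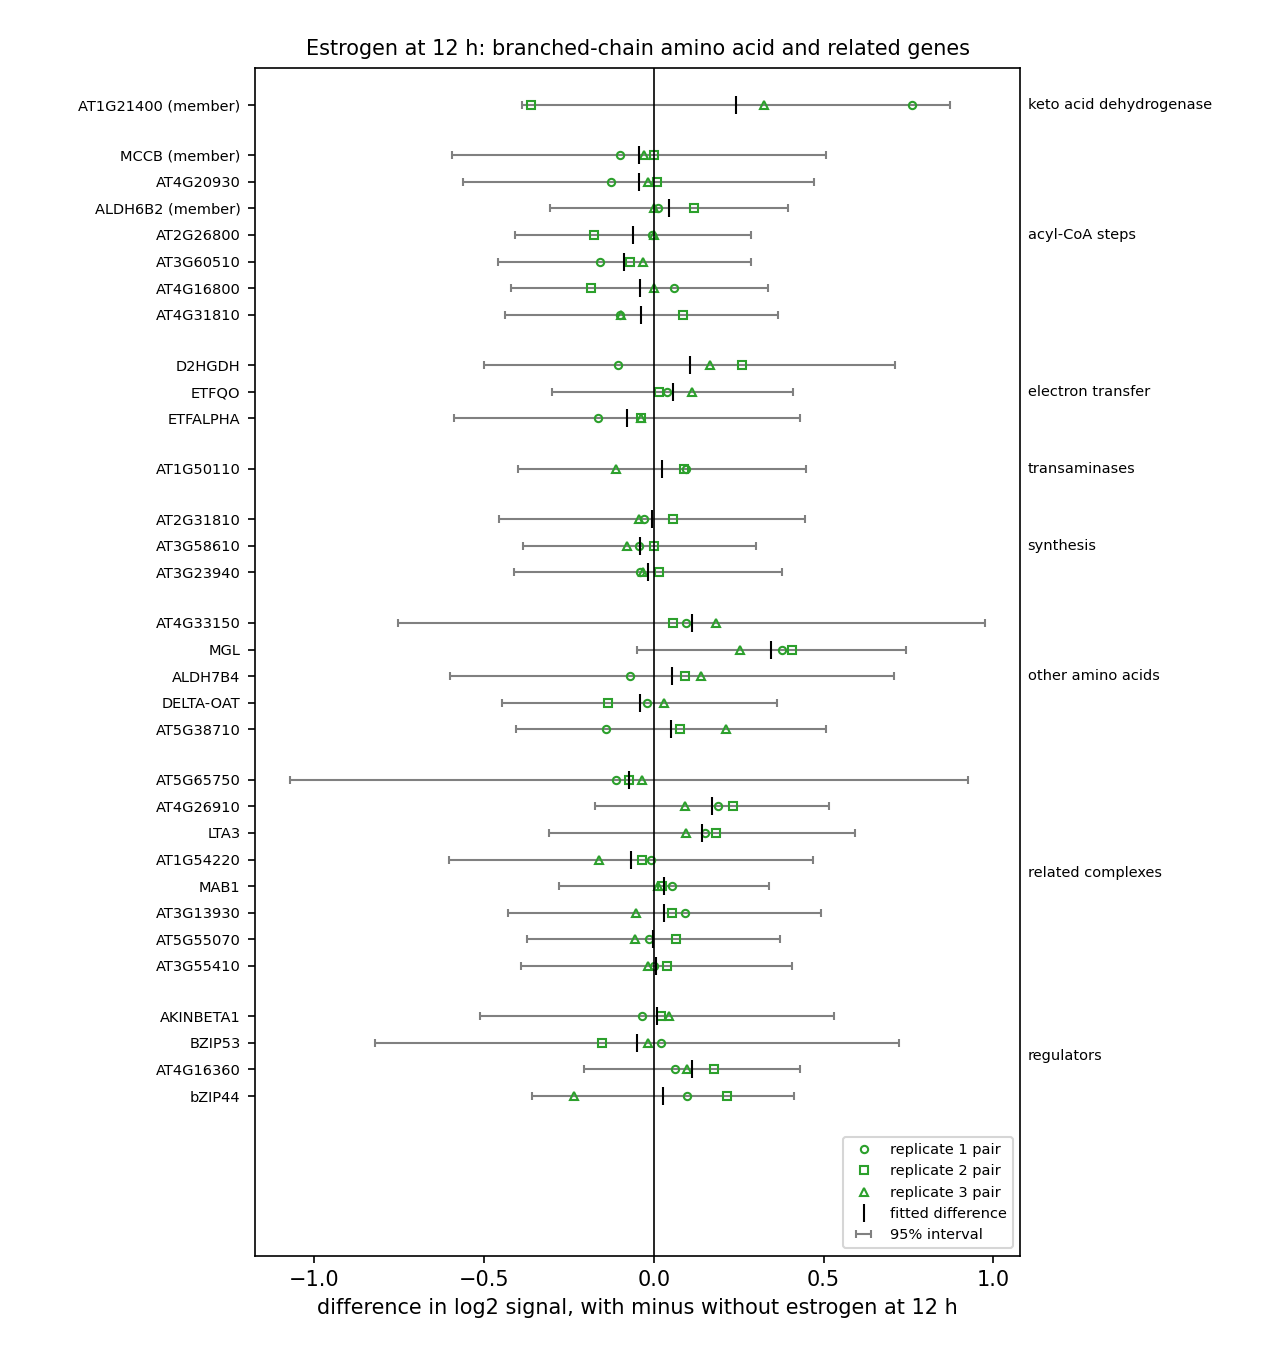
Difference in log2 signal with minus without estrogen at 12 h for the 3 genes chosen (marked member) and 29 others, as the fitted difference (black bar), its 95% interval (grey) and the 3 pairs of equal replicate number (symbols). Every interval includes 0, and MGL has the largest fitted difference (0.35).

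Likeness to other genes was measured as Pearson's r over the 9 arrays, which here fall into the 3 high arrays at 0 h and the 6 low ones at 12 h. With such clusters any gene with a large fall tends to a high r, which was above 0.95 for 775 of 16719 other probe sets for AT1G21400, 1069 for MCCB and 1054 for ALDH6B2. Between the 3 genes r was 0.98 for AT1G21400 with MCCB, 0.99 for AT1G21400 with ALDH6B2 and 0.997 for MCCB with ALDH6B2. The nearest genes to AT1G21400 were AT5G24490, BGLU21 and AT3G51000 (r = 0.998, 0.998 and 0.997). Those nearest to MCCB were AT2G23790, AT2G40110 and AT1G07040 (all r = 0.999). ALDH6B2 had AT1G09010 (r = 0.9998), AT3G26720 and AT5G56100 (both r = 0.999) nearest to it. AT1G09010 followed ALDH6B2 in level of change too, with differences of -2.61 without and -2.57 with estrogen, while AT5G56100 differed by -7.01 in both comparisons. The mean of AT5G56100 at 12 h was 2.27 in both groups, below the median of the background rows. Those of AT2G40110 (2.90 without and 2.79 with estrogen) were also below it. AT5G24490 was near that median at 12 h (4.19 without and 4.34 with estrogen), and AT1G21400 itself lay below it. The size of these differences is thus uncertain.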

How the data were processed

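Labelled sense-strand DNA made from total RNA was hybridised to 1 Affymetrix array per sample, per the labels' protocols. The authors deposited log2 signals for each probe set. The submitters' processing notes name Affymetrix Expression Console 1.3. How signals were summarised and normalized, and the genome build, are not given in the sources used here. Of 38506 rows, 38310 had a value on all 9 arrays and were tested unfiltered. Platform annotation gave 16722 of them 1 gene, and RefSeq (TAIR10.1), used for names, loci and neighbouring genes, held 16574 of these. The number of arrays limits the precision.

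With limma 3.58.1 in R 4.3.3 (lmFit, eBayes), group means were modelled over the 9 arrays. Tests were two-sided, Benjamini-Hochberg adjustment covered all 38310 probe sets, and calls needed an adjusted p under 0.05. The procedure was run on simulated data with independent noise and 200 changed probe sets. It called 78 of 100 changes of size 2 on the log2 scale, 99 of 100 of size 4, and 8 unchanged probe sets. The simulation had no replicate 3 batch and far fewer changes than the data, so it does not cover these. Figures used matplotlib 3.10.9. The genes, the 10 lists and the words searched were chosen with earlier results of these data known. The rule named the chosen genes, up to 4 genes per list by smallest p without estrogen, and the 3 genes most like each chosen gene. AT4G16800, AT5G38710, AT1G54220, LTA3, AT5G65750 and AT4G26910 were named after their values were seen. A search of gene names for words of the pathway added no gene.

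Replicate numbers recur in each group. Same-numbered arrays deviated together from their groups' means (r = 0.173 to 0.616, over 0.1 in every pair), so differences are also given by replicate number. The main fit had no term for that number, so its SEs and p-values take no account of pairing. Unlike numbers of replicates 1 and 2 also correlated (r = 0.156 to 0.277), so only replicate 3 (r = 0.445 to 0.616) stood clear of them. Alternatives were the replicate block, replicate 3 as a batch, replicates 1 and 2 alone, the 2 groups compared alone, quantile normalization, median centring, no dimmest 25%, a robust trended prior, array weights, distinct profiles and each array left out.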

Additional observations from a re-analysis of the deposited data

How the results depend on the processing

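Under all 19 alternatives, which kept 1 sign for each chosen gene against 0 h, AT1G21400 lay between -7.39 and -6.73 without estrogen and -7.20 and -6.53 with it, MCCB between -4.46 and -3.71 and between -4.56 and -3.75, and ALDH6B2 between -3.19 and -2.63 and between -3.19 and -2.59. Leaving out 1 array gave -7.09 to -6.73, -4.15 to -3.71 and -2.79 to -2.63 without estrogen, and -6.96 to -6.53, -4.19 to -3.75 and -2.74 to -2.59 with it. Scaling moved the fitted differences downwards. Quantile normalization gave -4.33 and -4.43 for MCCB and -3.07 and -3.04 for ALDH6B2 (without and with estrogen), and median centring -7.39 and -7.20 for AT1G21400, -4.46 and -4.56 for MCCB and -3.19 and -3.19 for ALDH6B2. These scalings move the median of all probe sets from 0.12 to -0.07 and -0.35 without estrogen. Within replicates 1 and 2 the differences were -6.86, -3.77 and -2.70 without estrogen and -6.66, -3.82 and -2.63 with it.

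With against without estrogen no alternative called a chosen gene (adjusted p 0.906 to 1), including the replicate block (SE 0.21, 0.17 and 0.08), which beyond the list genes named above also called AT4G26910 (0.36 with estrogen against 0 h, adjusted p = 0.00863), AT2G31810 (-0.40, 0.00869) and AT5G65750 (-0.51, 0.00332) and changed no other call of the genes read here. Called probe sets numbered 0 lower and 15 higher. They were 3 lower with the block, 40 higher with replicate 3 as a batch, 39 lower and 30 higher in replicates 1 and 2, 390 lower and 218 higher with array weights, and 0 to 73 lower and 11 to 22 higher with 1 array left out, the 73 without the untreated replicate 3. Calls lower than at 0 h, 4562 without and 4490 with estrogen, became 8184 and 8412 after quantile normalization and 12637 and 14022 after centring. Higher calls were 10501, 8966 and 7981 without estrogen in the same order, and 10789, 9131 and 8050 with it.

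The acyl-CoA steps (4 lower, 1 higher), electron transfer (3 lower) and other amino acids (5 lower) kept those counts in all 19 alternatives. Synthesis had 1 lower instead of 0 with the block, quantile normalization, centring, array weights, the batch block and replicates 1 and 2. The related complexes had 1 lower instead of 0 with the block, centring, the batch block and replicates 1 and 2. Regulators had 0 higher instead of 1 after quantile normalization and centring. Over the 19 alternatives regulators had 2 or 3 lower, and the related complexes 5 or 6 higher. All these counts are without estrogen. With estrogen against 0 h, AT4G16360 was called in 12 of 19 alternatives, BZIP53 in 16 and bZIP44 in 17. Using the mean of several probe sets changed nothing, since each gene had 1.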
